A study of Mus musculus with 12 samples.

Results

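Guidance genes encode cues that attract or repel moving cells and growing axons, and the receptors that read them. They were followed here in 4T1 cells, a mouse mammary carcinoma line. The genes were taken from the deposited count table by name: every semaphorin of classes 3 to 7, plexin, neuropilin, ephrin, Eph receptor, Slit, Robo, netrin and Unc5 receptor symbol, which gave 67 of 31017 gene symbols. Of these, 41 reached a depth-scaled read count of 1 CPM (scaled here by the TMM method) in at least 3 of the 12 libraries and are described by their levels. All 12 libraries came from cells that had received Cas9 by nucleofection together with either a control sgRNA or an sgRNA against ETV4, and had then grown in collagen I gels at 100000 cells/ml. ETV4 is a transcription factor of the ETS family. The 4 groups, each of 3 libraries, were control and ETV4 knockout cells, each kind without and with FGF. The FGF cultures received 25 ng/ml FGF10 plus 40 ng/ml FGF2, first for a day in 10% serum and then for 4 days in 2% serum. For the groups without FGF the labels give 4 days in 2% serum and no separate seeding medium or day. FGF, the serum at seeding and a possible extra day of culture therefore cannot be told apart. The gels held 1.2 or 2.4 mg/ml collagen, without a statement of which library had which. The library names of all 6 knockout libraries carry 1 further tag whose meaning is not given. It is not stated whether the knockout population was pooled or clonal, and in a single clone the clone and the genotype cannot be told apart. Nor do the labels say that replicates were separate cultures, so the spread behind the p-values is that among these libraries and may be technical.

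Semaphorins signal mainly through plexins. The secreted class 3 members mostly need a neuropilin as the binding subunit, whereas the membrane-bound classes bind plexins directly. Ephrins are tethered to the cell surface and signal to Eph receptor tyrosine kinases on neighbouring cells, and can also signal back into the cell that carries them. Slits act through Robo receptors, and netrins through Dcc, neogenin and the Unc5 receptors. In the mammary gland these systems are known for roles in duct branching, in the adhesion between the epithelial layers and, in tumours, in invasion and vessel growth.

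Library totals ran from 18229429 to 23193244 counts. Replicate 2 of the knockout group without FGF stood apart from its 2 partners, with a chi-square per degree of freedom of 73.1 and 74.3 over genes, against 3.34 to 11.6 between all other replicates of a group. Among the 31 guidance genes with at least 5 CPM in every knockout library without FGF, its level relative to the mean of its partners ran from 0.465 for Sema6d to 1.35 for Sema7a. These ratios had a Spearman correlation of -0.64 with exon length across genes, which share 1 library and are not independent. Beside the genes concerned, the text gives the calls that appeared or were lost without this library, and the called values that moved by over 1.5 times. Etv4 itself was at 166 ± 3.18 CPM in control and 130 ± 24.8 CPM in knockout (SD, n = 3 libraries), a log2 difference of -0.35 (edgeR adjusted p = 0.0173). With FGF the difference was -0.51 (edgeR adjusted p = 0.00204). Counts over the whole gene do not show whether the guide's target was cut. The 7 epithelial markers summed to 4420 to 6750 CPM. Pdgfrb, Thy1, Dcn and Lum of the 7 fibroblast markers, Kdr and Emcn of the 5 endothelial markers, Adgre1 and Cd3e of the 5 leukocyte markers, and Rbfox3 and Sox10 of the 6 neural markers had no count. Single markers differed between genotypes by edgeR. Without FGF, Epcam (log2 difference -0.43) and Cdh1 (-0.46) were lower and Krt19 (1.41), Cldn4 (0.77) and the leukocyte marker Cd68 (0.47) higher in the knockout. With FGF, Epcam (-0.42) and Krt8 (-0.43) were lower and Krt19 (0.91), Cldn4 (0.33) and the fibroblast marker Pdgfra (0.51) higher. Cdh1 and Cd68 were not called with FGF (edgeR adjusted p = 0.0919 and 0.0729). Their part in the guidance results was not tested. The sums were 7.93 to 15.9 CPM for fibroblast, 0.094 to 0.748 for endothelial, 5.63 to 11.5 for leukocyte and 0.0986 to 0.598 for neural markers. In these bulk libraries, fewer cells expressing a gene and less RNA per cell cannot be told apart.

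Per kilobase of exon, the scale on which genes can be compared, the guidance genes of control cells spanned from 92.0 ± 3.38 CPM per kb for Epha2 to 0.1 ± 0.0321 for Sema3a. Epha2, an Eph receptor prominent in epithelial tumours, was followed by the neuropilin Nrp2 at 64.3 ± 0.32, the Eph receptor Ephb4 at 39 ± 1.57, the plexin Plxnb2 at 35.1 ± 1.14, the netrin receptor Unc5b at 33.0 ± 0.711 and the ephrin Efnb2 at 30.6 ± 0.463. Most receptor systems and the netrins were dominated by a few genes. Nrp2 held 98.2% of the neuropilin level per kilobase, Plxnb2 57.6% of the plexin level, Epha2 58.4% and Ephb4 24.8% of the Eph receptor level, and Ntn1 96.1% of the netrin level. Unc5b and Robo1 were the sole Unc5 and Robo genes at or above the 1 CPM limit. The ligand families were more spread, with Sema4b at 24.2% and Sema3f at 21.5% of the semaphorins, and Efnb2 at 25.1% and Efna1 at 22.6% of the ephrins. The plot of levels shows each gene in all 4 groups.

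**Figure D1:**
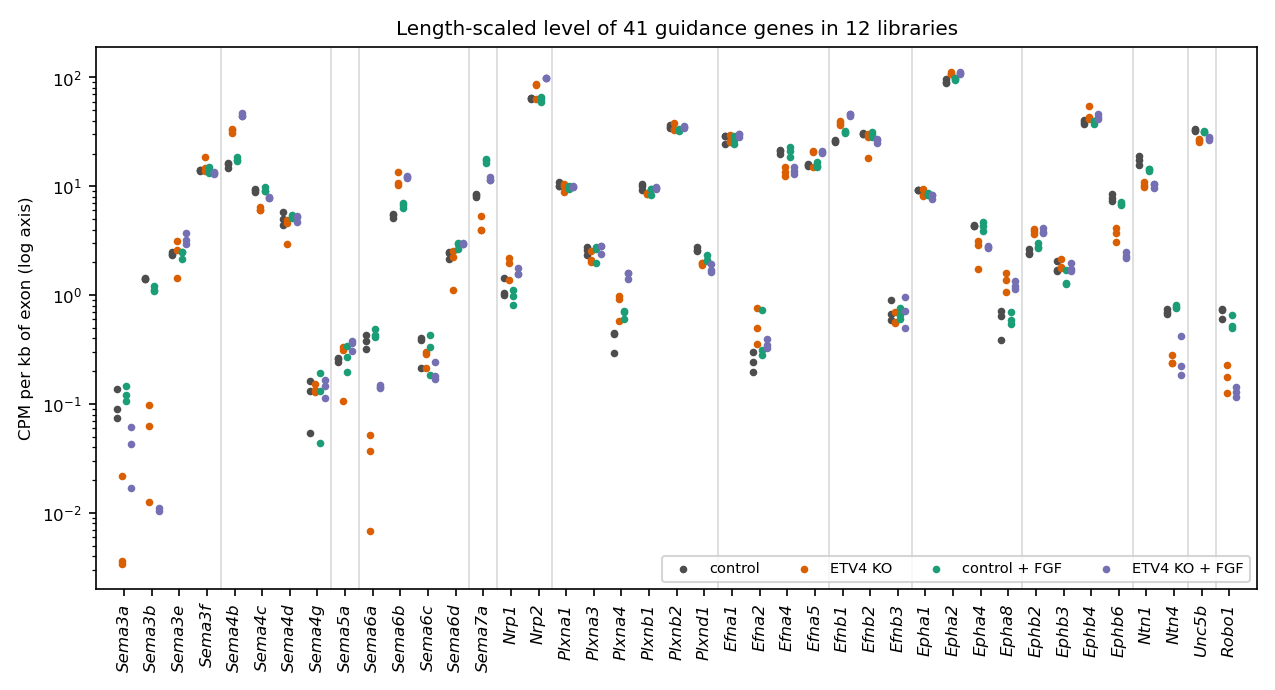
Level of each of the 41 described guidance genes in CPM per kilobase of exon on a log axis, by family, with 1 point per library coloured by group. Epha2 and Nrp2 lie highest, at 92.0 and 64.3 CPM per kb in control, and 1 library of knockout cells with FGF in which Sema3b had no count is not drawn.

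The other 26 genes did not reach the limit. No read was counted in any library for 14 of them: Plxna2, Unc5c, Unc5d, Robo2, Robo3, Robo4, Slit3, Sema5b, Ephb1, Epha3, Epha5, Epha6, Epha7 and Epha10. The other 12 (Plxnb3, Plxnc1, Sema3c, Sema3d, Sema3g, Sema4a, Sema4f, Efna3, Slit1, Slit2, Ntn5 and Unc5a) had at least 1 count. Just inside the limit were Efna2, which reached 1 CPM in 3 libraries with a range of 0.423 to 1.62 CPM, and Sema3a, which reached it in 6 with a range of 0.0467 to 2.05 CPM. Just outside were Slit2, at 0 to 1.17 CPM with 2 libraries over the limit, and Efna3, with at most 0.797 CPM.

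The promoters of these genes were searched for the core letters that ETS factors bind. A RefSeq start site on GRCm38.p6 was found for 58 of the 67 genes, with 74 promoters. The 250 bases before each start were searched on both strands for CCGGAA and AGGAAG, both forms of that core with its flanks. The 2 motifs overlapped in none of these promoters. CCGGAA stood in 12% and AGGAAG in 29.5% of all 32851 RefSeq promoters of this length. Among the 14 promoters of 13 genes that were lower in a knockout comparison, 3 (21.4%) held CCGGAA and 5 (35.7%) AGGAAG. For the 12 promoters of 10 genes that were higher, the numbers were 2 (16.7%) and 5 (41.7%). No start site was found for Sema3b, Sema6a and Ntn1, which were lower, or for Plxna4, which was higher, so these genes are not counted. All 74 promoters together gave 7 (9.46%) and 25 (33.8%). A match is a description of the letters in this window and says nothing of binding.

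The promoters of 4 genes are shown because these genes cover the different responses described below: Ephb6 fell in the knockout, Sema4b and Sema6b rose, and Sema7a fell in the knockout and rose with FGF. Each sequence runs 5′ to 3′ on the gene's strand and ends just before the start site, with capitals marking CCGGAA or AGGAAG on either strand. They lie at chr6:41605261-41605510 on the plus strand (Ephb6), chr7:80186620-80186869 on the plus strand (the outer of 2 Sema4b starts), chr17:56133853-56134102 on the minus strand (the inner of 2 Sema6b starts) and chr9:57939862-57940111 on the plus strand (Sema7a).
Ephb6: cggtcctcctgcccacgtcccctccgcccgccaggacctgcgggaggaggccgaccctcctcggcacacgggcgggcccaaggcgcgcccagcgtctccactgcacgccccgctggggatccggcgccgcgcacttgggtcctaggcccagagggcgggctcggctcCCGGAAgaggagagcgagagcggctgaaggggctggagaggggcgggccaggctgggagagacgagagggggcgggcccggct
Sema4b: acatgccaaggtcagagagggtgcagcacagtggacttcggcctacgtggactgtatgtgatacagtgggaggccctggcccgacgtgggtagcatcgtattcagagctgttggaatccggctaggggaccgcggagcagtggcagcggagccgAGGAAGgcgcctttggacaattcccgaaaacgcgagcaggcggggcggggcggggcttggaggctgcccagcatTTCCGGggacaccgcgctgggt
Sema6b: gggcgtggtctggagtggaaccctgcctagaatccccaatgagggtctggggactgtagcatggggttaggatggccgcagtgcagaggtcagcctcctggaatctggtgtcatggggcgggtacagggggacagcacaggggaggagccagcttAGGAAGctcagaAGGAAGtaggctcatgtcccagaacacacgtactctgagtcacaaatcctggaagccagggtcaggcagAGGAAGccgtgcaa
Sema7a: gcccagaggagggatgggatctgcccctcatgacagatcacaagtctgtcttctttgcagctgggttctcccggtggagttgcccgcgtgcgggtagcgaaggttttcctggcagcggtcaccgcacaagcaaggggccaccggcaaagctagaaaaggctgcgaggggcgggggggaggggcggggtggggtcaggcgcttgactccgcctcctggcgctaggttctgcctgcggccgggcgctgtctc
In Ephb6, CCGGAA begins 83 bases before the start. In Sema4b, AGGAAG begins 96 bases before it, and the capitals TTCCGG, which are CCGGAA on the other strand, 22 bases before it. In Sema6b, AGGAAG stands 95, 83 and 14 bases before this start, while the window of the outer Sema6b start holds neither motif. The inner Sema4b start, not printed, has AGGAAG at 244 bases and, on the other strand, at 190 bases before it. The Sema7a window holds neither motif. Of the other genes at least 2-fold lower in the knockout without FGF and with a start site, not printed, Robo1 and Slit2 have neither motif. Sema3a, Sema4f and Ntn4 have AGGAAG.

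The knockout comparison asked which guidance genes differ between cells given the ETV4 guide and cells given the control guide. Without FGF, the largest decreases were in the semaphorins Sema3a, Sema3b, Sema4f and Sema6a, the Slit and Robo genes Slit2 and Robo1, and the netrin Ntn4. The largest increases were in the semaphorins Sema4b and Sema6b, the plexin Plxna4 and the Eph receptor Epha8. Of 43 genes with enough counts to test (the 41 described genes, Slit2 and Sema4f), 11 (25.6%) were higher and 16 (37.2%) lower in knockout cells at an edgeR adjusted p under 0.05. Over all 12079 genes tested, 22.5% were higher and 23.3% lower. With FGF present in both arms, 10 (23.3%) were higher and 14 (32.6%) lower, against 18.0% and 22.2% of all genes. The median log2 difference of the tested guidance genes was -0.21 without FGF and 0.02 with FGF, against -0.01 and -0.01 over all genes. Since a gene that is high in 1 group alone passes the filter on low counts, these counts and medians are descriptions. The heatmap of the described genes by library, in family blocks, shows single genes that differ between the 6 control and the 6 knockout libraries.

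**Figure D2:**
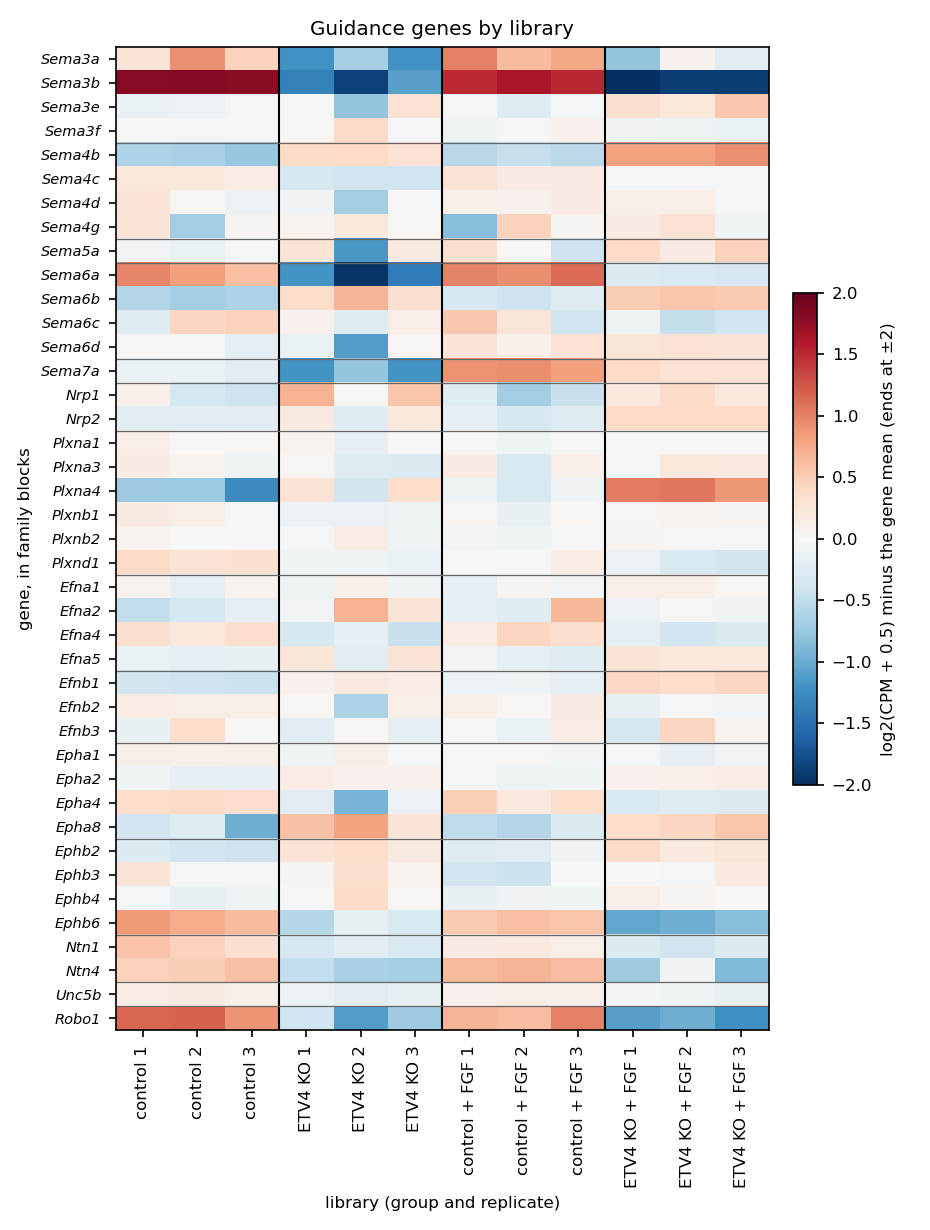
Heatmap of 41 guidance genes (rows, in family blocks) in 12 libraries (columns, by group and replicate), as log2 of CPM plus 0.5 minus the gene's mean over all libraries, with colours ending at a difference of 2 in either direction. Sema3b, Sema6a, Ephb6 and Robo1 are redder in the control libraries, and Sema4b, Sema6b and Plxna4 are redder in the knockout libraries of the same FGF condition.

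The comparisons without and with FGF used different libraries, but of the same kinds of cells and in a single fit with a shared estimate of spread. Calls in both are therefore not independent. The share of all genes called in both was not computed, so the counts that follow are descriptions. Higher in both were 10 genes: Sema4b, Sema6b, Nrp1, Nrp2, Plxna4, Efna5, Efnb1, Epha2, Epha8 and Ephb2. Lower in both were 14: Sema3a, Sema3b, Sema4c, Sema6a, Sema7a, Plxnd1, Efna4, Epha4, Ephb6, Ntn1, Ntn4, Unc5b, Slit2 and Robo1. Ephb4 was called higher, and Plxnb1 and Sema4f lower, without FGF only by this threshold, and none of the 3 differences was called in the test of interaction given below. The other 16 tested genes passed in neither comparison, and 0 genes passed in opposite directions. In a fit on the 6 compared libraries alone, Efna5, Epha2, Ephb4, Nrp1, Nrp2 and Plxnb1 lost their calls without FGF (edgeR adjusted p from 0.0521 to 0.212). With no filter on low counts, Efna5 and Plxnb1 lost theirs without FGF, and Sema4c, Epha2 and Unc5b theirs with FGF (edgeR adjusted p from 0.0582 to 0.0593). The plot of knockout differences shows both comparisons for each gene.

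Some genes passed only in a fit that left out 1 library. Without knockout replicate 2, the library that stood apart, Sema3e (log2 0.25, edgeR adjusted p = 0.0466) and Epha1 (-0.17, 0.0468) were called without FGF. In the comparison with FGF the same fit called Sema3e (0.47, edgeR adjusted p = 1.28e-04), Efnb2 (-0.19, 0.0027), Ephb4 (0.17, 0.00561), Ephb3 (0.34, 0.0256), Sema4f (0.034) and Efna1 (0.16, 0.0483), although that library is in neither group compared. Without knockout replicate 3, Efnb2 and Sema4d were called lower without FGF (edgeR adjusted p = 0.0428 and 0.0477) and Sema3e higher with FGF (0.0346). Efna2 was called higher without FGF when knockout replicate 1 or replicate 2 or 3 of control with FGF was left out (edgeR adjusted p from 0.0236 to 0.0492). With FGF, Ephb3 and Sema6c were called without replicate 3 of control with FGF (edgeR adjusted p = 0.0197 and 0.0403), and Sema4f without replicate 1 of knockout with FGF (0.0183).

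**Figure D3:**
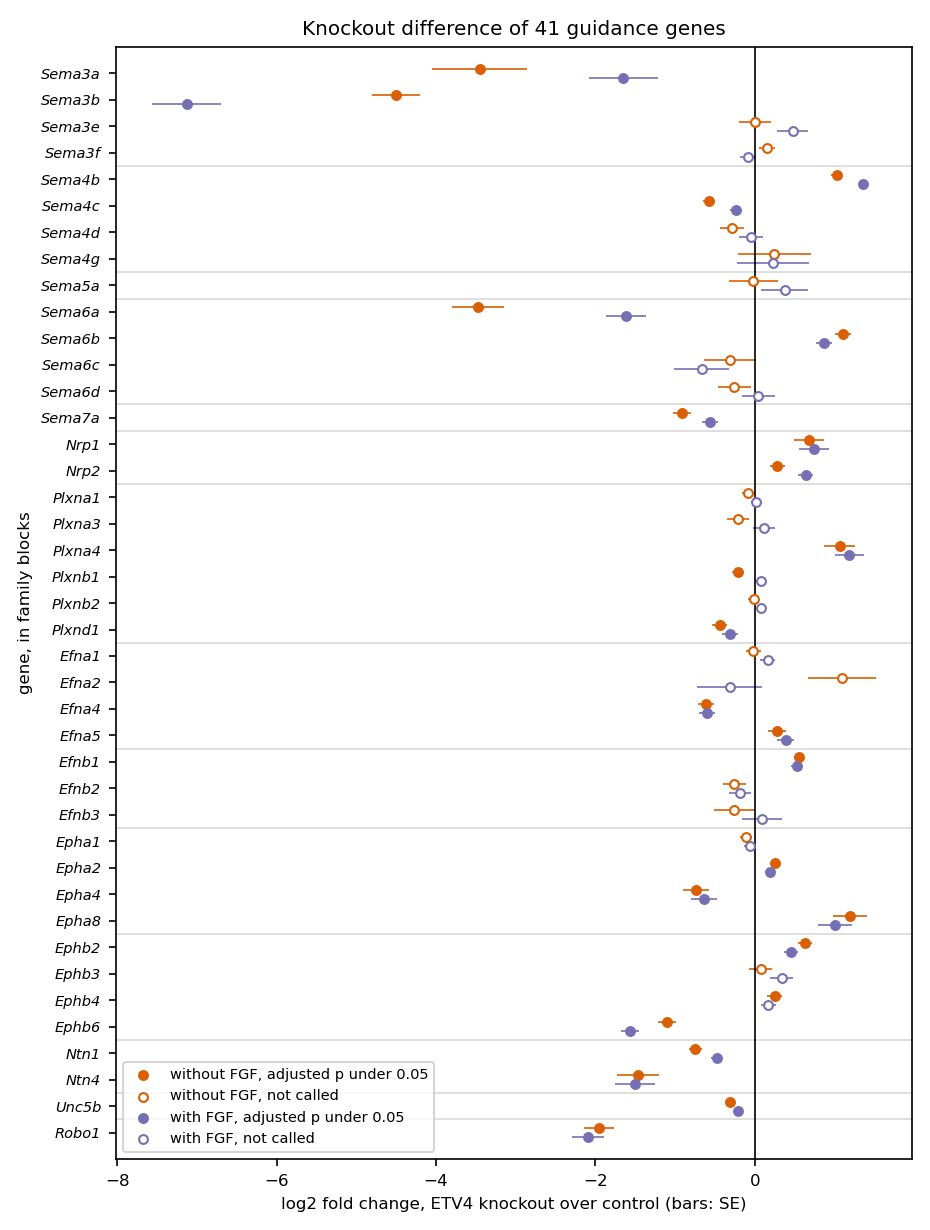
Log2 difference between ETV4 knockout and control for 41 guidance genes in family blocks, without FGF (orange) and with FGF (purple), with bars for the SE and filled symbols for an edgeR adjusted p under 0.05. Sema3a, Sema3b and Sema6a lie farthest to the left, and the fitted value of Sema3b with FGF rests on 2 knockout counts and has no firm size.

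Among the secreted class 3 semaphorins, which repel axons and endothelial cells, Sema3a and Sema3b fell, and Sema3e and the most abundant member, Sema3f, passed in neither comparison with all libraries. Sema3b (chr9:107597674-107609229) was at 6.72, 6.80 and 6.67 CPM in control and at 0.303, 0.0600 and 0.467 CPM in knockout. It was at 5.23, 5.86 and 5.33 CPM in control with FGF and at 0, 0.0529 and 0.0493 CPM in knockout with FGF. No knockout library came near a control library. The log2 difference without FGF was -4.50 ± 0.30 (SE; edgeR adjusted p = 1.26e-07). With FGF, 353 counts in control stood against 2 in knockout, which gives a ratio of 165 (95% counting interval 45.4 to 1370). Sema3a (chr5:13125414-13602565) was at 1.03, 1.89 and 1.25 CPM in control and 0.0505, 0.3 and 0.0467 CPM in knockout, and at 2.05, 1.47 and 1.67 against 0.234, 0.846 and 0.592 CPM with FGF. The groups did not overlap in either setting. Its differences were -3.45 ± 0.60 without FGF (edgeR adjusted p = 4.59e-04; -4.68 without knockout replicate 2) and -1.65 ± 0.43 with FGF (edgeR adjusted p = 0.00799).

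Sema3f, which signals through Nrp2, lies 72.3 kb from Sema3b. Its levels were 73.6, 71.6 and 73.9 CPM in control and 76.1, 96.2 and 72.0 CPM in knockout, with overlapping libraries. Its log2 differences were 0.16 ± 0.10 without FGF (edgeR adjusted p = 0.21) and -0.08 ± 0.10 with FGF (edgeR adjusted p = 0.523). The class 3 level as a whole was 18.0 ± 0.236 CPM per kb in control and 18.1 ± 1.62 in knockout, of which Sema3f made up 78.1% and 86.4%. Sema3e, a ligand of Plxnd1, had log2 differences of 0.00 ± 0.20 and, with FGF, 0.47 ± 0.20, and was not called with all libraries. Without knockout replicate 2 it was called in both, at 0.25 and 0.47.

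Class 4 semaphorins are membrane proteins that bind plexins of the B and D groups among others. Sema4b (chr7:80186841-80226527), whose promoter is printed above, stood at 93.0, 91.3 and 84.0 CPM in control and at 186, 188 and 174 CPM in knockout. With FGF it stood at 96.9, 104 and 98.2 CPM in control and 251, 249 and 269 CPM in knockout. Every knockout library was above every control library of both settings. The log2 differences were 1.03 ± 0.07 without FGF (edgeR adjusted p = 1.57e-07) and 1.36 ± 0.07 with FGF (edgeR adjusted p = 1.09e-08). The share of Sema4b in the semaphorin level per kilobase went from 24.2% in control to 40.7% in knockout, and from 22.7% to 44.3% with FGF. Its relative Sema4c, a high-affinity ligand of Plxnb2, fell, from 43.4, 42.5 and 40.9 CPM to 29.5, 27.9 and 27.7 CPM without FGF. With FGF the Sema4c levels were 44.8, 41.4 and 41.2 against 36.0, 36.3 and 36.0 CPM, and that call was lost without replicate 1 of control with FGF (edgeR adjusted p = 0.0778). Sema4d and Sema4g passed in neither comparison. Sema4f, under the 1 CPM limit throughout, had 34 counts in control and 0 in knockout, at least 10.5-fold lower at a floor of 3 counts over the group (edgeR adjusted p = 0.0029).

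The class 6 semaphorins, transmembrane ligands of A-type plexins, moved in opposite directions. Sema6a (chr18:47235598-47368870) was at 3.76, 3.35 and 2.79 CPM in control and at 0.454, 0.0600 and 0.327 CPM in knockout. With FGF it was at 3.81, 3.64 and 4.29 CPM in control and 1.31, 1.27 and 1.23 CPM in knockout. All knockout libraries lay below all control libraries. The log2 differences were -3.47 ± 0.33 without FGF (edgeR adjusted p = 3.72e-06) and -1.62 ± 0.25 with FGF (edgeR adjusted p = 2.11e-04). Sema6b (chr17:56123085-56140343) was at 22.1, 20.4 and 21.5 CPM in control and 42.8, 53.8 and 41.2 CPM in knockout, and with FGF at 26.5, 24.9 and 28.1 against 47.4, 49.1 and 48.3 CPM. The median of the neighbouring genes, the 25 tested on each side, was 0.37 and 0.24 for Sema6b. Its libraries did not overlap, with differences of 1.10 ± 0.10 (edgeR adjusted p = 2.63e-06) and 0.86 ± 0.10 with FGF (edgeR adjusted p = 1.92e-05). Sema6c and Sema6d passed in neither comparison. In the class 5 block, Sema5a did not pass either.

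Sema7a (chr9:57940112-57962865), the semaphorin anchored to the membrane by a GPI tail and known to bind integrins as well as Plxnc1, fell in the knockout. It was at 27.9, 27.7 and 26.4 CPM in control and 13.0, 17.6 and 13.0 CPM in knockout, a log2 difference of -0.92 ± 0.11 (edgeR adjusted p = 2.38e-05). With FGF the difference was -0.56 ± 0.10 (edgeR adjusted p = 7.12e-04). Of 15 tested semaphorins, 2 were higher and 6 lower in the knockout without FGF, and 2 higher and 5 lower with FGF. These are 13.3% higher and 40.0% lower, then 13.3% and 33.3%, beside 22.5% and 23.3%, then 18.0% and 22.2%, of all genes. The semaphorin level summed over all 20 genes was 65.3 ± 2.1 CPM per kb in control and 79.5 ± 3.17 in knockout, and 77.9 ± 0.353 and 103 ± 1.61 with FGF, so the sum stood higher in knockout while more of the single genes were lower.

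**Figure D4:**
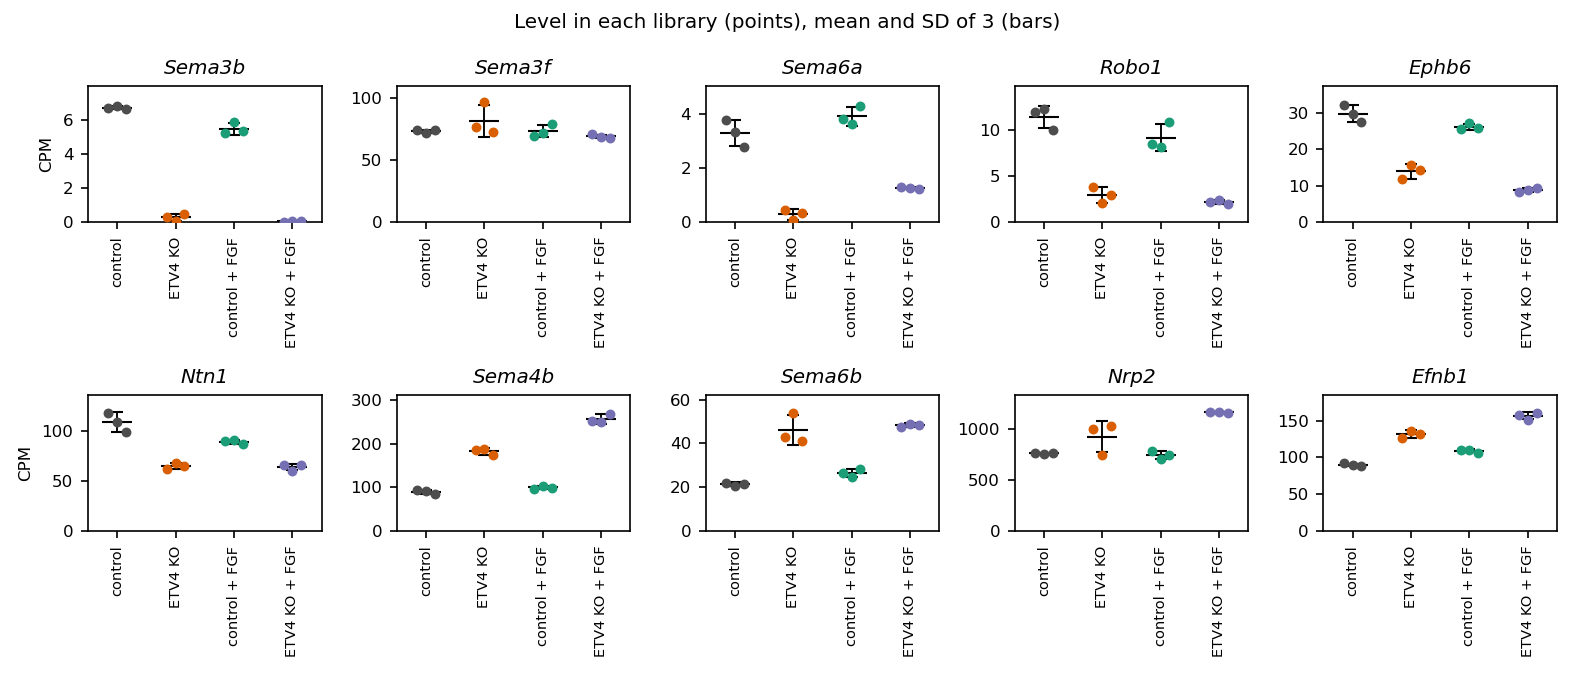
CPM in each library of 10 guidance genes in the 4 groups, with 1 point per library, a long bar for the mean and whiskers for the SD of 3 libraries, on linear axes that start at 0. Sema3b, Sema6a, Robo1, Ephb6 and Ntn1 are lower and Sema4b, Sema6b and Efnb1 higher in both knockout groups. Sema3f overlaps between the genotypes both without and with FGF. In the knockout without FGF, 1 Nrp2 library lies at 749.5 CPM beside the controls.

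Of the receptors for semaphorins, both neuropilins were higher in the knockout. Nrp2 (chr1:62703285-62818695) was at 766, 758 and 762 CPM in control and 1004, 749.5 and 1028 CPM in knockout, so replicate 2 overlapped the controls. With FGF it was at 791, 706.5 and 748 CPM in control and 1168, 1168 and 1162 CPM in knockout, with no overlap. The log2 difference without FGF was 0.28 ± 0.10 (edgeR adjusted p = 0.0303), and 0.42 without the outlying replicate 2 (edgeR adjusted p = 9.37e-08). Leaving out knockout replicate 1 or 3, any 1 control library or replicate 2 of control with FGF ended this call, with edgeR adjusted p from 0.0647 to 0.117. With FGF the difference was 0.64 ± 0.10 (edgeR adjusted p = 2.01e-04). Nrp1 (chr8:128358604-128503363), the lower of the pair, was at 14.1, 10.2 and 9.76 CPM in control and 21.5, 13.4 and 19.5 CPM in knockout. It rose by 0.68 ± 0.19 without FGF (edgeR adjusted p = 0.00915), with 1 knockout library under the highest control, and by 0.75 ± 0.19 with FGF (edgeR adjusted p = 0.00642).

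The plexins as a class differed little, at 61.0 ± 2.36 CPM per kb in control and 58.2 ± 1.96 in knockout. Plxna4 (chr6:32144268-32588192), a partner of neuropilins and of Sema6a, was the exception in size, although it is one of the lowest plexins per kilobase. It was at 6.30, 6.23 and 4.18 CPM in control and 13.0, 8.15 and 13.7 CPM in knockout, and at 9.91, 8.59 and 10.2 against 22.6, 22.7 and 19.9 CPM with FGF. The libraries did not overlap in either setting. The log2 differences were 1.07 ± 0.20 (edgeR adjusted p = 6.85e-04) and 1.19 ± 0.18 with FGF (edgeR adjusted p = 1.87e-04). Plxnd1, the receptor of Sema3e, fell in both comparisons, by 0.44 ± 0.10 and 0.31 ± 0.10 on the log2 scale. Without replicate 3 of control with FGF, or without replicate 2 or 3 of knockout with FGF, the second call was lost (edgeR adjusted p from 0.0679 to 0.0868). Plxnb1 fell without FGF by 0.21 ± 0.07, and its call was lost when replicate 1 or 2 of control or replicate 1 or 3 of knockout was left out (edgeR adjusted p from 0.0592 to 0.131). Plxna1, Plxna3 and the dominant Plxnb2 passed in neither.

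The ephrin level summed to 122 ± 3.98 CPM per kb in control and 125 ± 5.11 in knockout, and to 126 ± 2.48 and 137 ± 1.22 with FGF. Efnb2 led in control with 25.1% of the level, whereas Efnb1 led in the other groups, with 30.5% in knockout, 25.0% in control with FGF and 33.1% in knockout with FGF. Efnb1, a transmembrane ephrin that binds EphB receptors, was at 91.8, 89.1 and 88.0 CPM in control and 126, 136 and 132 CPM in knockout. It was at 110.0, 110.4 and 106 CPM in control with FGF and 158, 151 and 160.4 CPM in knockout with FGF. The rises of 0.55 ± 0.06 and 0.52 ± 0.06 on the log2 scale had no overlap between libraries. Efnb2, a ligand of Ephb4, was at 213, 209 and 207 CPM in control and 196, 124 and 206 CPM in knockout, and was not called (log2 difference -0.26 ± 0.14, edgeR adjusted p = 0.157). Its low value came from replicate 2, and without it the difference was -0.06. With FGF the difference of -0.19 ± 0.14 was not called either, and was called without that library (edgeR adjusted p = 0.0027).

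Among the ephrins with a GPI anchor, Efna4 fell, from 33.9, 31.7 and 34.2 CPM to 21.6, 24.2 and 19.8 CPM without FGF, by 0.61 ± 0.10 on the log2 scale, and by 0.60 ± 0.10 with FGF. Efna1, the main ligand of Epha2 in epithelia, and Efna3 lie beside it in a cluster on chromosome 3, with gaps of 10.4 kb between Efna4 and Efna3 and 32.8 kb between Efna3 and Efna1. Efna1 passed in neither comparison with all libraries, with log2 differences of -0.02 ± 0.09 and 0.16 ± 0.09. Efna5 was called higher in both, at 0.28 ± 0.11 without FGF (edgeR adjusted p = 0.0493) and 0.39 ± 0.11 with FGF (edgeR adjusted p = 0.0113). The first of these calls was lost in each fit that left out a library, except that without knockout replicate 2 it was 0.42 (edgeR adjusted p = 3.08e-06), and 1 knockout library lay below the controls. The neighbouring genes of Efna5 had a median of 0.365 without FGF and 0.25 with FGF. The second was lost without replicate 2 or 3 of control with FGF (edgeR adjusted p = 0.0522 and 0.0507). Efna2 and Efnb3, both low, passed in neither.

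Eph receptors were called in both directions, with 4 higher and 2 lower of 8 tested without FGF and 3 higher and 2 lower with FGF. The shares lower, 25.0% in both, were near the 23.3% and 22.2% of all genes, and the shares higher were 50% and 37.5%, beside 22.5% and 18.0%. Ephb6 (chr6:41605482-41620509), an Eph receptor whose kinase domain is inactive, showed the largest fall. It was at 32.1, 29.6 and 27.4 CPM in control and 11.7, 15.8 and 14.2 CPM in knockout, and at 25.4, 27.0 and 25.9 against 8.28, 8.67 and 9.47 CPM with FGF. Each knockout library was below each control library. The log2 differences were -1.10 ± 0.11 (edgeR adjusted p = 5.93e-06) and -1.57 ± 0.12 with FGF (edgeR adjusted p = 2.97e-07). Epha4, which binds ephrins of both the A and B groups, was at 34.8, 35.5 and 34.5 CPM in control and 23.4, 14 and 25.1 CPM in knockout. It fell by 0.74 ± 0.16 on the log2 scale without FGF, where the value was -0.53 without replicate 2, and by 0.64 ± 0.16 with FGF.

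Epha8 (chr4:136929419-136956816) and Ephb2 (chr4:136647539-136835988) are neighbours, 93.4 kb apart, and both were higher in the knockout. Epha8, at the low end of the range, was at 3.06, 3.35 and 1.84 CPM in control and 6.46, 7.61 and 5.04 CPM in knockout, and with FGF at 2.76, 2.58 and 3.33 against 5.38, 5.76 and 6.31 CPM. The log2 differences were 1.20 ± 0.22 (edgeR adjusted p = 6.02e-04) and 1.01 ± 0.21 with FGF (edgeR adjusted p = 0.00216). Ephb2, a receptor for B-type ephrins with roles in sorting epithelial cells, was at 33.4, 30.8 and 30.1 CPM in control and 48.8, 51.6 and 45.9 CPM in knockout, and rose by 0.63 ± 0.09 and 0.46 ± 0.08 with FGF. The 25 tested genes on each side of these genes had a median log2 difference of 0.03 without FGF around Epha8. Epha2, the most abundant Eph receptor, went from 448, 418 and 424 CPM to 527, 508 and 502 CPM, a rise of 0.25 ± 0.06, and of 0.19 ± 0.06 with FGF. With FGF the Epha2 call was lost when replicate 2 or 3 of either group was left out (edgeR adjusted p from 0.0504 to 0.077). Ephb4, the Efnb2 receptor, was at 189, 174 and 180.1 CPM in control and 193, 252 and 200.2 CPM in knockout. Its difference of 0.25 ± 0.09 (edgeR adjusted p = 0.0418) was 0.12 without the outlying replicate 2 (edgeR adjusted p = 0.0701), and the median of its neighbours was 0.49. Leaving out any library except replicate 1 or 3 of the knockout or replicate 2 of control with FGF ended the call. Epha1 and Ephb3 passed in neither comparison with all libraries.

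Both netrins with enough counts fell. Ntn1 (chr11:68209364-68400823), the secreted netrin that binds Dcc, neogenin and Unc5 receptors, was at 118.5, 109.6 and 99.4 CPM in control and 62.4, 68.3 and 64.7 CPM in knockout. With FGF it was at 89.8, 91.2 and 86.9 against 65.9, 60.4 and 66.1 CPM. All control libraries were above all knockout libraries, and the differences were -0.75 ± 0.08 and -0.48 ± 0.08 with FGF, beside medians of -0.26 and -0.37 for its neighbouring genes. Ntn4 (chr10:93640681-93747207), a netrin that also binds laminin, was at 2.54, 2.60 and 2.79 CPM in control and 1.06, 0.899 and 0.888 CPM in knockout, and at 2.89, 3.03 and 2.86 against 0.842, 1.59 and 0.690 CPM with FGF. Its log2 differences were -1.47 ± 0.26 (edgeR adjusted p = 5.86e-04) and -1.5 ± 0.25 with FGF (edgeR adjusted p = 4.29e-04). Their receptor Unc5b, at 205, 211 and 202 CPM in control and 170.2, 161 and 168 CPM in knockout, fell by 0.31 ± 0.06 and, with FGF, by 0.20 ± 0.06. The Unc5b call with FGF was lost without replicate 2 of control with FGF or replicate 3 of knockout with FGF (edgeR adjusted p = 0.0642 and 0.07).

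Slit2, a repellent that acts through Robo receptors, was counted in every control library and in no knockout library. It had 18, 23 and 19 counts in control and 28, 18 and 19 in control with FGF, and 0 counts in each of the 6 knockout libraries. With 60 counts against 0, Slit2 was at least 18.5-fold lower in the knockout without FGF at a floor of 3 counts over the group (edgeR adjusted p = 1.04e-04), and with 65 against 0 at least 20.3-fold lower with FGF (edgeR adjusted p = 8.79e-05). Robo1 (chr16:72308306-73046095), the one Robo receptor with counts, was at 12, 12.3 and 10.1 CPM in control and 3.79, 2.1 and 2.9 CPM in knockout. With FGF it was at 8.53, 8.18 and 10.9 CPM in control and 2.15, 2.38 and 1.92 CPM in knockout. The groups were well apart, with log2 differences of -1.96 ± 0.19 (edgeR adjusted p = 4.31e-06) and -2.09 ± 0.20 with FGF (edgeR adjusted p = 3.27e-06). The 25 tested genes on each side of Robo1 had a median of -0.45 without FGF and -0.44 with FGF.

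Fewer genes were called between cultures with and without FGF than between genotypes, both among guidance genes and among all genes. In control cells, 1 of the 43 tested guidance genes (2.33%) was higher with FGF and 0 were lower by edgeR. Over all genes these shares were 0.257% and 0.232%. Before adjustment, 9 guidance genes had an edgeR p under 0.05. The share of all genes under that unadjusted p was not computed, so this count is a description. The one called was Sema7a, which rose from 27.9, 27.7 and 26.4 CPM to 57.4, 58.9 and 54.3 CPM, a log2 change of 1.06 ± 0.10 (edgeR adjusted p = 1.81e-04). In knockout cells, 5 (11.6%) were higher and 1 (2.33%) lower, against 1.47% and 0.944% of all genes. An unadjusted edgeR p under 0.05 was reached by 14, again without a share of all genes to set beside it. Sema7a rose there too, from 13.0, 17.6 and 13.0 CPM to 40.4, 37.5 and 37.6 CPM, a log2 change of 1.41 ± 0.11 (edgeR adjusted p = 1.5e-05). Its libraries with and without FGF did not overlap in either genotype, as the plot of genes called with FGF shows.

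**Figure D5:**
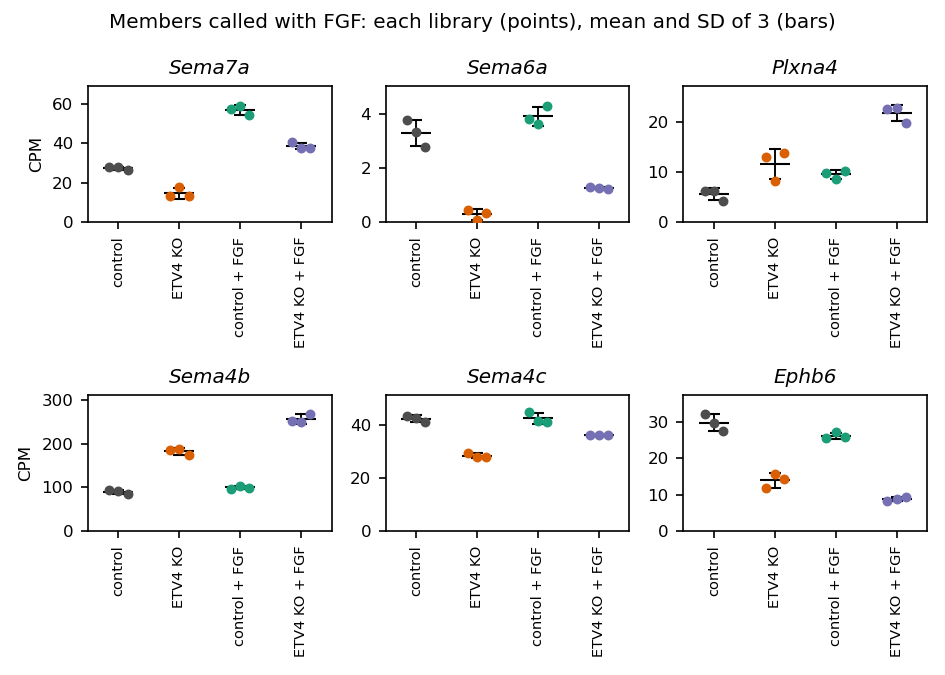
CPM in each library of the 6 guidance genes called in a comparison of FGF with no FGF, in the 4 groups, with 1 point per library, a long bar for the mean and whiskers for the SD of 3 libraries, on linear axes that start at 0. Sema7a is higher with FGF in both genotypes, with 54.3 to 58.9 CPM in control and 37.5 to 40.4 CPM in knockout cells given FGF.

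The other genes called with FGF in knockout cells were 4 that rose and 1 that fell. Sema6a, low in the knockout, went from 0.454, 0.0600 and 0.327 CPM to 1.31, 1.27 and 1.23 CPM, by 2.1 ± 0.38 (edgeR adjusted p = 0.00955), and remained below the control libraries. Plxna4 rose by 0.89 ± 0.18 (edgeR adjusted p = 0.0199), Sema4b by 0.49 ± 0.07 (edgeR adjusted p = 0.00221) and Sema4c by 0.35 ± 0.07 (edgeR adjusted p = 0.0233). Ephb6 fell by 0.65 ± 0.12 (edgeR adjusted p = 0.00955). All 5 were without overlap between libraries with and without FGF. So were Efnb1, Nrp2, Plxnb1, Sema3b, Sema3f and Sema6d, which were not called with all libraries. In control cells Efnb1, Epha1, Ephb2, Ephb6, Ntn1, Ntn4, Plxna4, Plxnb2, Plxnd1, Sema3b, Sema4b, Sema6b and Sema6d also did not overlap, uncalled with all libraries. The share of all genes without overlap was not computed, so these lists are descriptions. In a fit on the 6 knockout libraries alone the 5 calls were lost (edgeR adjusted p from 0.0712 to 0.227) and that of Sema7a was kept. The calls of Plxna4 and Sema4c were lost when any 1 of the knockout libraries with FGF was left out (edgeR adjusted p from 0.0521 to 0.0982), that of Sema4c also without knockout replicate 3 (0.0533), and that of Ephb6 without replicate 1 or 2 of knockout with FGF (0.0608 and 0.0558). Sema3a, at 0.234, 0.846 and 0.592 CPM with FGF, was not called (log2 2.12 ± 0.70, edgeR adjusted p = 0.132). It was called without the outlying knockout replicate 2 (log2 3.34, edgeR adjusted p = 0.0204). In control cells Plxna4 had a log2 difference of 0.78 ± 0.20 with FGF (edgeR adjusted p = 0.188), and was called without that library (edgeR adjusted p = 0.00105). Leaving out the same library added calls for Efnb1 (0.28, edgeR adjusted p = 0.00116), Sema6b (0.31, 0.0111) and Ntn1 (-0.29, 0.00515) in control cells. In knockout cells it added Efnb1 (0.28, edgeR adjusted p = 0.00189), Nrp2 (0.20, 0.00951), Sema6d (0.31, 0.0312) and Sema3b (0.00758), the last on 2 counts with FGF. With all libraries, DESeq2 called Plxna4, Efnb1 and Ntn1 in control cells (DESeq2 adjusted p = 0.0193, 1.06e-04 and 0.0352). A fit on the libraries of control cells alone called the same genes (edgeR adjusted p = 0.0112, 0.00722 and 0.0249). In knockout cells DESeq2 added Efnb1, Nrp2 and Sema3a (DESeq2 adjusted p = 9.63e-05, 0.0471 and 0.0333), and RLE scaling added Efnb1 (edgeR adjusted p = 0.0362). With all libraries Efnb1 had an edgeR adjusted p of 0.0953 in control and 0.0537 in knockout cells, and its call in knockout cells also appeared without replicate 2 of control with FGF (0.0421).

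Whether the FGF response differed between genotypes was tested as an interaction. None of the 43 guidance genes passed in edgeR, against 0.0166% of all genes. An unadjusted p under 0.05 was reached by 11, and the share of all genes at that unadjusted level was not computed. The smallest adjusted p was 0.262, for Sema6a, with a log2 interaction of 1.86 ± 0.44. DESeq2 gave 1 call, Sema6a at 1.89 with an adjusted p of 0.0221. Without knockout replicate 2, edgeR called Sema7a (0.51, adjusted p = 0.0131) and Sema4b (0.36, adjusted p = 0.031). With all libraries these were 0.35 ± 0.15 (edgeR adjusted p = 0.485) and 0.33 ± 0.10 (edgeR adjusted p = 0.42). So the calls of Sema6a, Sema4b, Sema4c, Plxna4 and Ephb6 in knockout cells alone do not show a response that depends on the genotype.

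The partners and signalling genes of these systems, taken from lists of known pathway members, were called in both directions. In the list of other netrin pathway genes, netrin-G, RGM and FLRT genes, 5 of 11 could be tested. Of these, 3 (60%) were higher and 0 lower in the knockout both without and with FGF: Neo1, Ntng2 and Flrt3. Over all genes, 22.5% and 18.0% were higher and 23.3% and 22.2% lower. Dcc, the classical netrin receptor, had 0 counts in all libraries, and Neo1, which encodes neogenin, was at 241 CPM in control and 368 CPM in knockout. Flrt3, a membrane protein that binds Unc5 receptors and Robo1, rose from 65.2 ± 1.47 to 132 ± 23.6 CPM (log2 1.01, edgeR adjusted p = 8.21e-06). In knockout cells it was the one gene of this list called with FGF, higher by 0.49 (edgeR adjusted p = 0.0282). That is 20% of the 5 tested, against 1.47% higher over all genes. In the list of signalling genes 40 of 45 could be tested, of which 11 were higher and 6 lower without FGF, and 11 higher and 5 lower with FGF. The shares higher, 27.5% in both, lay near those of all genes (22.5% and 18.0%), and the shares lower, 15% and 12.5%, were below 23.3% and 22.2%. The median log2 differences without FGF were 0.45 and 0.06 for the 2 lists. Chn2, which encodes a chimaerin, had 136 counts in control and 0 in knockout, at least 42.0-fold lower, and 133 against 1 with FGF, which gives a ratio of 125 (95% counting interval 22.0 to 4950). Limk1, a kinase that inactivates cofilin, went from 12.5 ± 0.865 to 25.0 ± 3.46 CPM (log2 1.01, edgeR adjusted p = 1.28e-05). L1cam, an adhesion molecule that can pair with Nrp1, rose from 5.32 ± 0.916 to 11.9 ± 0.352 CPM (log2 1.16, edgeR adjusted p = 3.78e-05). With FGF, Sdc1, a heparan sulfate carrier, was the one signalling gene called in knockout cells, with a rise of 0.38. It makes up 2.5% of the 40 tested, against 1.47% higher over all genes.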

How the data were processed

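The authors deposited 1 table of raw counts, unnormalized, with a row per gene symbol. Per the submitters' processing notes, the tools were STAR 2.7.9a and featureCounts, with FastQC 0.11.9 and R 4.1.1, and the builds named are mm10 and hg38. Not given in the sources used here are the strand setting, the annotation release and how multi-mapped reads were handled. Genes that overlap or have near-identical copies therefore have uncertain counts. Groups follow the sample labels.

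From the counts, genes passing filterByExpr (12079) were tested in R 4.3.3 by the quasi-likelihood F-test of edgeR 4.0.16, two-sided, after TMM scaling. One fit with a mean per group covered all 12 libraries, with 8 residual degrees of freedom. Calls are at a Benjamini-Hochberg adjusted p under 0.05 over all tested genes. The SE is the log2 difference divided by the square root of F. CPM is TMM-scaled, and CPM per kb uses merged exon length. Coordinates are mm10, from GENCODE vM21, 1-based, and promoters are RefSeq's on GRCm38.p6. The test was checked on simulated counts.

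Full statistics are given for described genes called with at least a 2-fold knockout difference, or called with FGF. From the partner lists, up to 5 genes with the smallest adjusted p without FGF are given in full, except 1 that is not reported here, and genes named beyond them (Neo1, Ntng2, Dcc and Sdc1) were chosen after their values were seen. Folds against 0 counts use a floor of 3 counts per group. Such floors, and the counting intervals, hold no error but that of counting. Alternatives were RLE scaling, no filter on low counts, a replicate block, the compared libraries alone, DESeq2 1.42.0 and leaving out each library. The genes, lists and alternatives were chosen with earlier results of these data known.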

Additional observations from a re-analysis of the deposited data

How the results depend on the processing

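The counts of guidance genes called in the knockout comparisons were within 1.5 times of the reported ones in all alternatives, except that fitting the compared libraries alone gave 6 instead of 11 higher genes without FGF. Leaving out 1 library at a time gave 8 to 11 higher and 16 to 18 lower without FGF, and 8 to 14 higher and 12 to 16 lower with FGF, with 4491 to 6667 and 3963 to 7172 genes called in all. The FGF counts were less stable. In control cells the compared libraries alone gave 3 higher, 1 lower and 228 genes in all, DESeq2 3, 1 and 143, and leaving out 1 library 1 to 4, 0 to 1 and 25 to 343, against 1, 0 and 59 reported. In knockout cells the compared libraries alone gave 1 higher, 0 lower and 23 in all, DESeq2 8 higher and 715 in all, and leaving out 1 library 3 to 9, 0 to 2 and 120 to 950, against 5, 1 and 292. For the interaction DESeq2 gave 1 higher guidance gene and 66 genes in all, no filter on low counts 8 in all, and leaving out 1 library 0 to 2 higher and 0 to 120 in all, against 0 and 2. The highest FGF and interaction values came without knockout replicate 2, and the cause was not tested. Over all 215 differences of the tested guidance genes (43 genes in 5 comparisons), 3486 of 3606 alternative values kept their side of the threshold, 71 lost the call and 49 gained one. The sign of a call differed from the reported value once, for Sema3e without FGF (0.25 without knockout replicate 2, against 0.00).

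Whether the replicate numbers mark paired libraries is not stated, and the correlations did not settle it. Deviations from the group mean correlated between -0.126 and 0.521 for same-numbered libraries (median 0.027), with 5 of 18 pairs over 0.1. For libraries of other numbers they correlated between -0.487 and 0.35 (median -0.009), with 4 of 36 pairs over 0.1. With the replicate number as a block, 11 guidance genes were higher and 16 lower without FGF, and 11 and 14 with FGF. Of the calls reported, Ephb4 alone was lost (edgeR adjusted p = 0.0501), while Efna2 was gained without FGF (0.0444) and Sema3e with FGF (0.0293). Genes near 1 CPM, such as Sema3a, Efna2 and Slit2, rest on few counts per library.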
